A study of Mus musculus with 3 samples.

Results

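The neutrophil chemokine axis was followed through 4 genes, the ligands Cxcl1, Cxcl2 and Cxcl3 and their receptor Cxcr2, in single cells of mouse liver wounds. The 4 genes were chosen by their UMI levels per library and per cell class, known from earlier results of these data, and they are 4 of 19091 genes listed over the 3 libraries. Their levels are therefore given as a description with no test. The wounds were made by irreversible electroporation (IRE), in which short electric pulses kill cells in a small area of the organ. Adult C57BL/6 mice received 8 pulses of 50 ms at 75 V, as the labels give it, and a 4 mm punch of liver was taken 1 day (IRE 1 day) or 7 days (IRE 7 days) post injury (p.i.). The methods give a different voltage, and which was used is not settled here. The control was sham surgery with sacrifice after 1 day, taken from an equivalent area without injury. The treatment labels name only sham surgery or electroporation and the day of sacrifice, with no transgene or further agent. The methods describe anaesthetic and pain-relief drugs at surgery and daily metamizole, a pain-relief drug, after it. The days of metamizole may therefore differ between 1 day and 7 days. Each library pooled the cells of 3 livers, so each of the 3 conditions was 1 library, and a difference between libraries cannot be told apart from a difference between conditions. Cells were freed with enzymes, red blood cells were lysed, nothing was sorted, and Drop-seq counted transcripts as unique molecular identifiers (UMIs) per cell barcode.

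Neutrophils find a wound by following chemokines. Cxcl1, Cxcl2 and Cxcl3 are small secreted proteins of the CXC family that bind the receptor Cxcr2 on the neutrophil surface, and the receptor then signals through a G protein to direct movement and activation. Macrophages, endothelial cells, hepatocytes and stromal cells can all make the ligands after tissue damage, largely under NF-kB, and neutrophils that have arrived can make Cxcl2 themselves and so draw in more neutrophils.

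The 3 ligand genes lie in a row of related chemokine genes on mouse chromosome 5, in the order Cxcl5, Ppbp, Pf4, Cxcl3, Cxcl15, Cxcl1 and Cxcl2, whereas Cxcr2 lies beside Cxcr1 on chromosome 1 (RefSeq, GRCm38.p6). All 4 members matched a promoter window of that build, running from 250 bases before the annotated start to 50 bases after it. The 120 bases just before the start of each ligand gene are shown because Cxcl2 and Cxcl3 were both far higher at 7 days and Cxcl1 was not. Capitals mark the longest run of letters that all 3 ligand genes share in the 250 bases before the start, matches to the letters GGGNNTTTC, which belong to the kind of site NF-kB binds, and matches to the letters ATAAAAG, like those of the box where the transcription machinery is placed. All were searched on both strands. The windows are chr5:90891125-90891244 for Cxcl1, chr5:90903779-90903898 for Cxcl2 and chr5:90785981-90786100 for Cxcl3, all on the plus strand.
Cxcl1: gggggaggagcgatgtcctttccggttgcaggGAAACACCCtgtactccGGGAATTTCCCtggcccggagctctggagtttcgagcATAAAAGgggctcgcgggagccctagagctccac
Cxcl2: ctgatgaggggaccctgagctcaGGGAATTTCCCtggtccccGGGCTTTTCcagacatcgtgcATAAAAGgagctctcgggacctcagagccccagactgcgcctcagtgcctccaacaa
Cxcl3: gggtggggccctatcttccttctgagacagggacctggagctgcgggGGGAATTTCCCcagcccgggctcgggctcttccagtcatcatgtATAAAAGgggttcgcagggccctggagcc

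The longest shared run was GGGAATTTCCC, 11 letters that begin 71 bases before the start in Cxcl1, 97 in Cxcl2 and 73 in Cxcl3 and that contain a match to GGGNNTTTC. Cxcl1 held a further match to GGGNNTTTC on the opposite strand at 88 bases and Cxcl2 a further match, GGGCTTTTC, at 78 bases. GGGNNTTTC was found in 4.36% of 32851 promoter windows of 300 bases, the shared run in 0.0426% and ATAAAAG in 5.42%, and the run was picked from the sequences themselves. ATAAAAG began 34, 57 and 29 bases before the start of Cxcl1, Cxcl2 and Cxcl3. The Cxcr2 window, chr1:74153744-74154043, held a match to GGGNNTTTC on the opposite strand at 157 bases and neither of the others. The matches are a description of sequence: Cxcl1 carried the same letters as the other ligands although its level in the libraries was unlike theirs.

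The deposited tables held 10032574 UMIs in 15704 barcodes for control, 8563287 in 18161 for IRE 1 day and 4580021 in 12466 for IRE 7 days. A barcode with at least 200 detected genes is called a cell here, which left 10386, 9253 and 5624 cells with medians of 595, 509 and 456.5 UMIs. The labels put the tagmented cDNA at an estimated 1000 cells, below each of these numbers, so some of the barcodes may not be single intact cells. The IRE 7 days library stood apart in 4.10% mitochondrial UMIs, against 20.5% and 21.7%. The 15 hepatocyte markers, of the cells that make up most of a liver, took at most 3.52% of UMIs in any library, and hepatocyte-like cells held 0.803% of the UMIs of cells in control and 10.4% at 1 day, and numbered 1 at 7 days. Between 44 and 149 cell barcodes were found in any 2 libraries, and the cells with shared barcodes held at most 4.55% of a member's UMIs in a library. Intervals are exact 95% limits of counting error only. They take each UMI as independent and cover neither the difference between animals nor that between cells. Where a few cells held many of the UMIs, they are too narrow.

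Cxcl2, a ligand that neutrophils and macrophages release in quantity, was found in few cells in control and at 1 day and in most cells at 7 days. Its level was 58.0 UMIs per 1000000 UMIs (CPM; 95% interval 52.9 to 63.5; 465 UMIs) in control cells, 49.3 CPM (43.9 to 55.2; 301 UMIs) at IRE 1 day and 5222 CPM (5141 to 5304; 15974 UMIs) at IRE 7 days. A Cxcl2 UMI was found in 3.05% of control cells, 2.01% of cells at 1 day and 67.8% at 7 days, where a single cell held up to 78. The 7 days library thus stood far above the others, which lay within a narrow range of each other.

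Cxcl3, a close relative of Cxcl2, followed the same order at 7 days from a lower base. Control cells held 44 Cxcl3 UMIs, or 5.49 CPM (3.99 to 7.37), IRE 1 day 81 UMIs, or 13.3 CPM (10.5 to 16.5), and IRE 7 days 7217 UMIs, or 2359 CPM (2305 to 2414). The share of cells with a Cxcl3 UMI was 0.212%, 0.476% and 39.6%.

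Cxcl1, the ligand that stromal and parenchymal cells are best known for, stayed near the limit of detection. It was counted 78 times in control (9.73 CPM, 7.69 to 12.1), 12 times at 1 day (1.96 CPM, 1.02 to 3.43) and 37 times at 7 days (12.1 CPM, 8.52 to 16.7). The intervals of control and 7 days overlapped, and that of 1 day lay below both. Over every deposited barcode the ratio of 7 days to control was 1.49 (1.04 to 2.11), and for mean UMIs per cell 0.876 (0.576 to 1.31), so no direction is given for Cxcl1 at 7 days. The 3 ligands of 1 receptor were therefore present in very different proportion at 7 days.

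Cxcr2, the receptor, had 621 UMIs in control cells, 173 at 1 day and 3734 at 7 days. These were 77.5 CPM (71.5 to 83.8), 28.3 CPM (24.3 to 32.9) and 1221 CPM (1182 to 1260). Cells with a Cxcr2 UMI made up 3.74%, 1.61% and 37.1%. Receptor transcript was thus lowest at 1 day, and in control it was above Cxcl2.

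**Figure D1:**
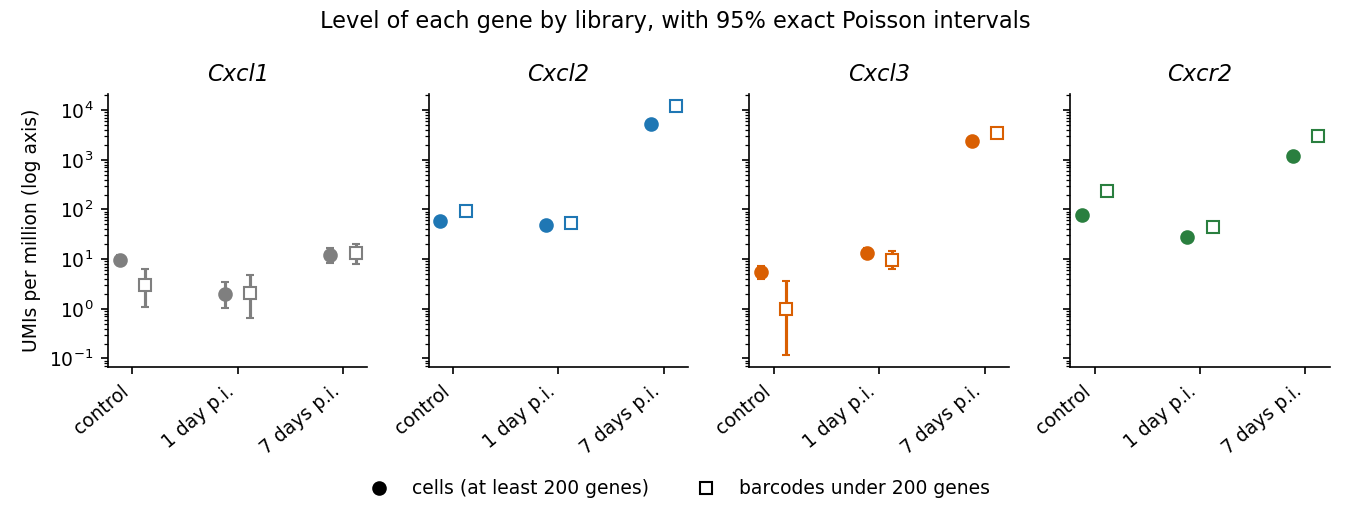
Level of Cxcl1, Cxcl2, Cxcl3 and Cxcr2 in each library in CPM on a log axis; filled points are cells, open squares barcodes under 200 genes and bars exact 95% Poisson intervals of counting error only. Cxcl2, Cxcl3 and Cxcr2 sit highest at IRE 7 days, at 5222, 2359 and 1221 CPM, and Cxcl1 lies at or under 12.1 CPM in the cells of every library.

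Against control, 3 of the 4 members were at least 2-fold higher at 7 days, as were 8.79% of the 10227 genes with at least 50 UMIs. The ratio was 430 (320 to 592) for Cxcl3, 90.0 (82.1 to 98.9) for Cxcl2, 15.8 (14.5 to 17.2) for Cxcr2 and 1.24 (0.817 to 1.86) for Cxcl1. Ordered by fold, Cxcl3 came 2nd, Cxcl2 4th, Cxcr2 58th and Cxcl1 2630th of those genes. Cxcl3, with 44 UMIs in control, reached 50 UMIs only with those of the 7 days library. Because the members were chosen with such values known, the order is a description.

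At 1 day the members parted. Cxcl3 was 2.42 times control (1.65 to 3.57), Cxcl2 0.849 times (0.732 to 0.984), Cxcr2 0.366 times (0.307 to 0.433) and Cxcl1 0.202 times (0.100 to 0.373). So 1 member was at least 2-fold higher, beside 12.2% of 11357 genes, and 2 were at least 2-fold lower, beside 5.86%. The higher Cxcl3 rested on 44 UMIs in control and 81 at 1 day, with up to 17 and 15 of them in 1 cell. The ratio fell under 2-fold in cells with at least 300 genes, at 1.71 (1.10 to 2.66). It did not hold in cells with at most 20% mitochondrial UMIs, where it was 0.847 (0.452 to 1.54).

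To find which cells held ligand and which held receptor, cells were gated on the share of their UMIs in marker genes of 16 classes, none of which is a chemokine or a member. Of 21 neutrophil markers listed, such as S100a8, S100a9 and Retnlg, 20 were present in each library. Neutrophil-like cells, those with at least 4% of UMIs in these 20, numbered 274 in control, 30 at 1 day and 1593 at 7 days. They made up 2.64%, 0.324% and 28.3% of cells, and 12.3%, 8.27% and 12.99% of their UMIs came from the neutrophil markers. The genes highest in them against other cells included Camp and Ngp at every time, both for proteins stored in neutrophil granules. Wound macrophage-like cells, gated on genes such as Spp1 and Gpnmb, numbered 197 in control and 992 at 7 days, and Spp1 was among their leading genes in both. At 1 day that gate took 23 cells led by Tspan8, a gene of bile duct cells, and their values are not given under its name.

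The neutrophil-like class has no gap at its border at 7 days. There 528 cells had between 3% and 5% of their UMIs in neutrophil markers, and the median over all cells was 1.77%, against 0.0951% in control. In T-like cells, which should lack them, neutrophil markers took 1.42% of UMIs at 7 days, 0.0652% at 1 day and 0.123% in control. Neutrophil transcripts were thus spread over all classes of the 7 days library.

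Cxcr2 marked the neutrophil-like class in control. It reached 1808 CPM there (1620 to 2012; 336 UMIs), which was 54.1% of all Cxcr2 UMIs in 2.32% of the library, and lay between 23.6 and 46.0 CPM in wound macrophage-like, Kupffer-like, T-like, endothelial-like, monocyte-like and unclassed cells. At 1 day the 30 neutrophil-like cells held 13 Cxcr2 UMIs in 8 cells, or 743 CPM (396 to 1271). At 7 days the level was 2861 CPM (2745 to 2980), with 61.6% of all Cxcr2 UMIs in 26.3% of the library's UMIs. The receptor level in neutrophil-like cells was thus 0.411 times control (0.217 to 0.713) at 1 day and 1.58 times control (1.41 to 1.78) at 7 days. Both depended on which cells were kept: the ratio at 7 days was 2.49 (2.06 to 3.03) in cells with at most 20% mitochondrial UMIs, and that at 1 day was 0.804 (0.360 to 1.57) in cells with at least 300 genes. In the same cells under other scalings, the ratio at 7 days was 1.18 for mean UMIs per cell and 1.28 without mitochondrial genes and hepatocyte markers.

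Cxcl2 in neutrophil-like cells went from 404 CPM (317 to 506; 75 UMIs in 274 cells) in control to 3146 CPM (2370 to 4094; 55 UMIs) at 1 day and 10616 CPM (10392 to 10844; 8535 UMIs) at 7 days. At 1 day these UMIs lay in 9 cells and 18 of them in 1 cell, without which the level was 2175 CPM (1531 to 2998). The ratio to control was 7.79 (5.40 to 11.2) at 1 day, or 6.01 with the highest cell of each library left out, and 26.3 (21.0 to 33.5) at 7 days. It stayed above control under the alternatives run, at 4.70 at 1 day with a minimum of 100 genes, and at 7 days at 41.3 (28.1 to 63.2) with at most 20% mitochondrial UMIs and 11.9 (8.69 to 16.7) without cells that held markers of a second class. In the library at 1 day, where Cxcl2 was near control over all cells, the neutrophil-like cells alone held 18.3% of the Cxcl2 UMIs while making up 0.286% of all UMIs.

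Cxcl3 was counted once in the 274 control neutrophil-like cells (5.38 CPM, 0.136 to 30.0). At 1 day 19 UMIs were found in 6 of 30 cells (1087 CPM, 654 to 1697) and at 7 days 2678 UMIs (3331 CPM, 3206 to 3460). With a single UMI in control, the ratio at 7 days had a counting interval from 111 to 24458 around 619. Cxcl1 had no UMI in neutrophil-like cells of control and 1 day and 5 UMIs in 1593 of them at 7 days. A count of 0 allows up to 16.1 CPM in control and 172 CPM in the 30 cells at 1 day.

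Among genes with at least 50 UMIs in neutrophil-like cells, Cxcl2 was at least 2-fold above control at 7 days, as were 24.9% of 2563 genes, and Cxcr2 was not, though it passed 2-fold under the mitochondrial limit. Cxcl3, with 1 UMI in control, reached 50 UMIs only through the 7 days library, so that its place among the 2-fold genes was fixed by the filter. At 1 day Cxcl2 was 2-fold higher, beside 5.49% of 437 genes, and Cxcr2 2-fold lower, beside 16.5%. The lower Cxcr2 rests on 13 UMIs at 1 day and reached 50 UMIs only through control, so its place is not read. It did not pass 2-fold in cells with at least 300 genes (0.804) or with at most 20% mitochondrial UMIs (0.578, 0.155 to 1.52), where both intervals took in 1. In control neutrophil-like cells receptor UMIs outnumbered Cxcl2 UMIs, with Cxcr2 at 81.8% of the sum (77.7 to 85.4), and at 7 days this was reversed, with Cxcr2 at 21.2% (20.5 to 22.0). At 1 day Cxcr2 was 19.1% of the sum.

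**Figure D2:**
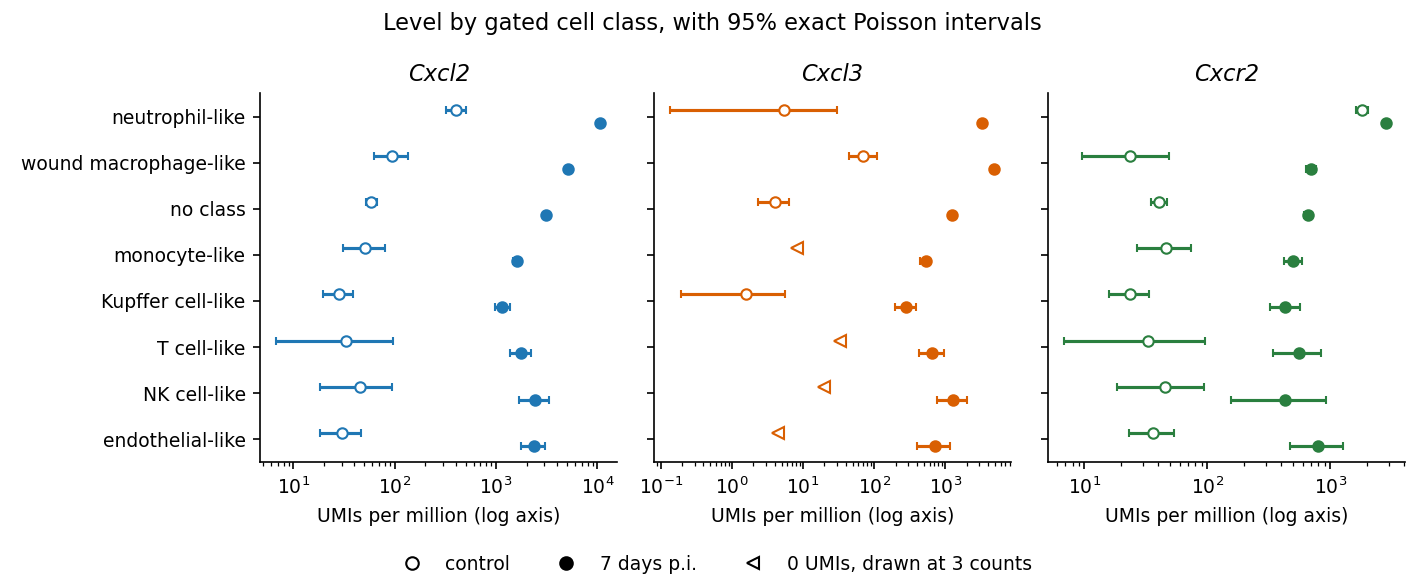
Level of Cxcl2, Cxcl3 and Cxcr2 by marker-gated class in control (open points) and at IRE 7 days (filled), in CPM on log axes with exact 95% Poisson intervals of counting error; a triangle marks 0 UMIs, drawn at 3 counts. Neutrophil-like cells hold the highest Cxcl2 (10616 CPM) and Cxcr2 (2861 CPM) at IRE 7 days, and wound macrophage-like cells the highest Cxcl3 (4777 CPM).

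The wound macrophage-like cells also held both ligands at 7 days. Their Cxcl2 was 94.2 CPM (28 UMIs) in control and 5082 CPM (4904 to 5264; 3088 UMIs) at 7 days. Their Cxcl3 was 70.7 CPM in control, where 17 of 21 UMIs came from 1 cell and the level without it was 13.5 CPM, and 4777 CPM (4605 to 4954; 2903 UMIs) at 7 days. Their Cxcr2 was 23.6 CPM (7 UMIs) in control and 698 CPM (633 to 767; 424 UMIs) at 7 days. In this class 20.1% of 2605 genes were at least 2-fold above control. Cxcl2, Cxcl3 and Cxcr2, with 28, 21 and 7 UMIs in control, all reached 50 UMIs only through the 7 days library. Their place among the 2-fold genes is therefore not read. The ratio of Cxcl3 went from 67.6 to 349 (136 to 1282) when the highest cell of each library was left out. It was 361 (141 to 1325) with a stricter gate and 27.5 (17.9 to 44.4) for mean UMIs per cell, and the control cells of this class were deeper, with a median of 1142 UMIs against 535.

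Within the 7 days library the classes differed in which ligand they held. Neutrophil-like cells had 2.09 times the Cxcl2 of wound macrophage-like cells (2.01 to 2.18) but 0.697 times their Cxcl3 (0.661 to 0.735). Cxcr2 was 4.10 times as high in neutrophil-like cells. Against all other cells of the library, Cxcl2 was 3.22 times and Cxcr2 4.50 times as high in neutrophil-like cells, both at least 2-fold like 5.06% of 5852 genes, and Cxcl3 1.65 times. In wound macrophage-like cells only Cxcl3, at 2.71 times all other cells, was among the 1.78% of genes at least 2-fold higher, while Cxcl2 was at 0.967 times and Cxcr2 at 0.517 times.

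Of all Cxcl2 UMIs at 7 days, 53.4% lay in neutrophil-like cells, 22.1% in cells of no class and 19.3% in wound macrophage-like cells. Of all Cxcl3 UMIs, 40.2% lay in wound macrophage-like cells, 37.1% in neutrophil-like cells and 19.1% in cells of no class. Wound macrophage-like cells made up 19.9% and neutrophil-like cells 26.3% of the library's UMIs. These shares move with the gate and with the cells kept. With the neutrophil threshold at 8% in place of 4%, a threshold picked with the values in view, neutrophil-like cells held 37.0% of the Cxcl2, 24.7% of the Cxcl3 and 44.8% of the Cxcr2 UMIs. At minimums of 100 and 300 genes they held 67.1% and 39.8% of the Cxcl2 and 51.6% and 26.6% of the Cxcl3 UMIs. Without cells that held markers of a second class they held 94.7% and 87.5%. Which class held most of the Cxcl3 thus depends on the cells kept.

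**Figure D3:**
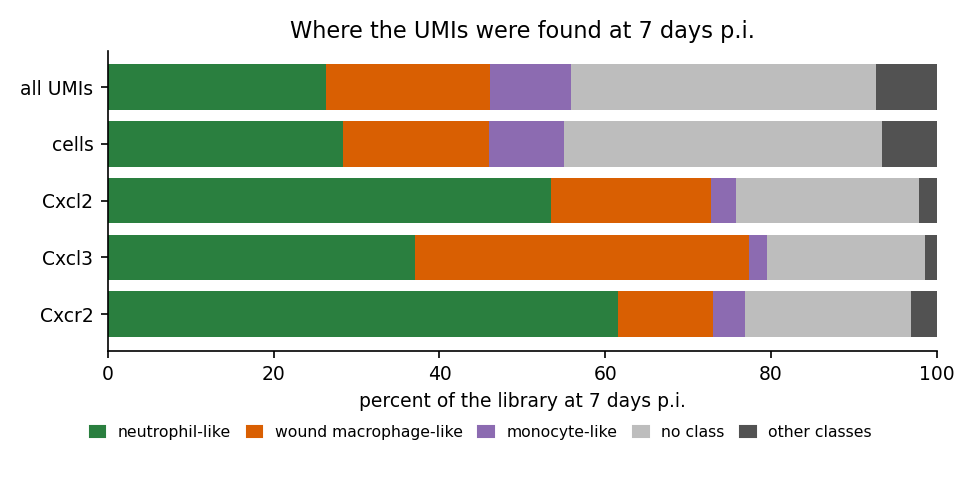
Stacked bars of the IRE 7 days library, each adding to 100 percent, for all UMIs of cells, for cells and for the UMIs of Cxcl2, Cxcl3 and Cxcr2, split by gated class. Neutrophil-like cells hold 26.3% of all UMIs but 53.4% of Cxcl2 and 61.6% of Cxcr2, and wound macrophage-like cells 40.2% of Cxcl3.

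Lymphocytes are not known as a main source of these ligands, and their levels are given as a reference. At 7 days, T-like cells held Cxcl2 at 1761 CPM (1365 to 2236), Cxcl3 at 657 CPM (425 to 970) and Cxcr2 at 552 CPM (342 to 844), from medians of 415 UMIs per cell against 439 in neutrophil-like cells. Monocyte-like cells, at 1620 CPM of Cxcl2 (1478 to 1772), were 0.920 times the T-like level (0.711 to 1.21), and Kupffer-like cells, the resident macrophages of the liver, stood at 1152 CPM (968 to 1360). NK-like cells, 30 in number, held Cxcl2 at 2408 CPM (1667 to 3364), Cxcl3 at 1275 CPM (755 to 2014) and Cxcr2 at 425 CPM (156 to 925), and 49 endothelial-like cells Cxcl2 at 2348 CPM (1759 to 3072). The NK-like and T-like intervals overlapped for all 3 genes, and up to 10 of the 34 Cxcl2 UMIs and 9 of the 18 Cxcl3 UMIs of NK-like cells lay in a single cell. Neutrophil-like cells were 6.03 times and wound macrophage-like cells 2.89 times the T-like level of Cxcl2, and 5.07 and 7.27 times its level of Cxcl3. Cxcl2 was also above control in Kupffer-like cells (40.7 times), monocyte-like cells (31.5 times) and T-like cells (53.3 times, from 3 UMIs), at levels at or below those of T-like cells at 7 days. The same held, at higher levels, for NK-like cells (45.6 CPM in control), endothelial-like cells (30.0 CPM in control) and cells of no class (58.6 CPM in control). Cells of no class stood at 3131 CPM (3028 to 3236) at 7 days, above the T-like interval. How much of the UMIs in any class came from RNA of other cells was not tested.

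Neutrophil-like cells stood above the other classes in the receptor. Cxcr2 at 7 days was 698 CPM in wound macrophage-like cells, 497 CPM in monocyte-like cells, 431 CPM in Kupffer-like cells and 798 CPM (473 to 1261) in endothelial-like cells, whose intervals overlapped that of T-like cells. Each cell was also thinned to 300 UMIs to compare shares at 1 depth. Then 53.7% of neutrophil-like cells (51.1 to 56.2) had a Cxcr2 UMI, against 17.4% of wound macrophage-like (15.0 to 19.9) and 15.4% of T-like cells (7.63 to 26.5). For Cxcl2 the thinned shares were 82.6%, 62.3% and 33.8%, and for Cxcl3 43.9%, 49.6% and 20%. Unthinned, 66.5%, 29.2% and 20.5% of these classes had a Cxcr2 UMI, 89.3%, 74.7% and 43.4% a Cxcl2 UMI and 53.4%, 60.6% and 24.1% a Cxcl3 UMI, and thinning left out 89, 48 and 18 shallower cells.

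The proportion of Cxcl3 in the sum of Cxcl2 and Cxcl3 UMIs differed between the classes. It was 23.9% (23.1 to 24.7) in neutrophil-like cells at 7 days and 48.5% (47.2 to 49.7) in wound macrophage-like cells. Monocyte-like cells (24.6%), T-like cells (27.2%), Kupffer-like cells (19.7%) and endothelial-like cells (23.2%) lay near the neutrophil-like value, with intervals that took it in. Barcodes under 200 genes were at 22.6% and cells of no class at 28.2% (26.9 to 29.4). NK-like cells, at 34.6% (22.0 to 49.1) from 18 Cxcl3 and 34 Cxcl2 UMIs, overlapped both. Cxcr2 was 12.1% (11.0 to 13.2) of the sum of Cxcl2 and Cxcr2 in wound macrophage-like cells, against 21.2% in neutrophil-like, 23.9% in T-like and 17.4% in unclassed cells, and 15.0% (5.71 to 29.8) in NK-like cells, whose interval again took in the wound macrophage-like value.

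**Figure D4:**
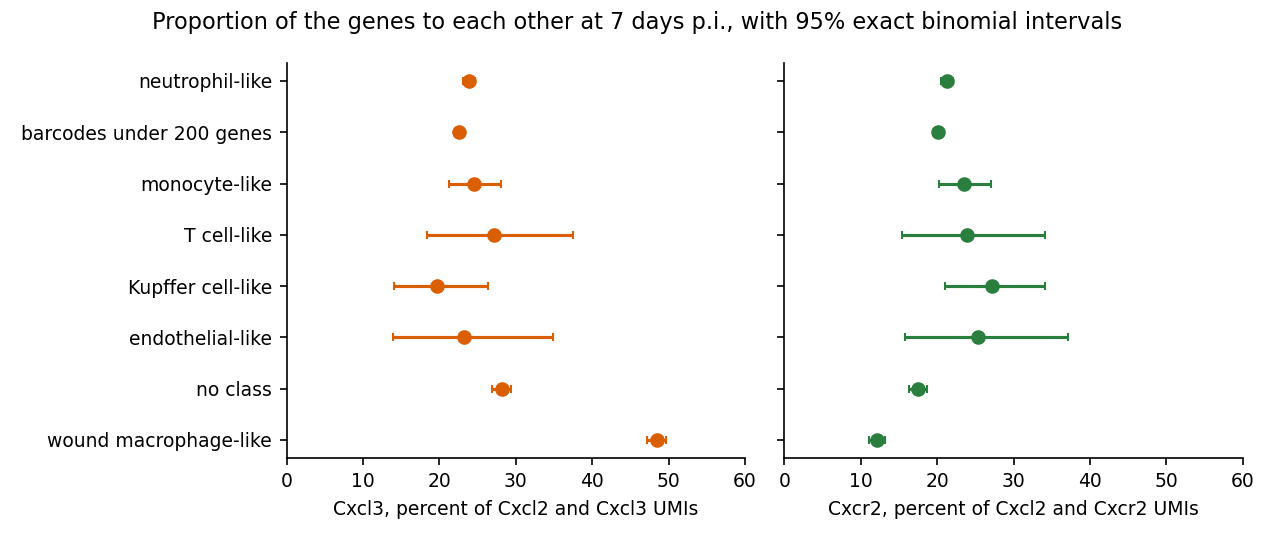
Cxcl3 as a percent of Cxcl2 plus Cxcl3 UMIs, and Cxcr2 as a percent of Cxcl2 plus Cxcr2 UMIs, by class at IRE 7 days with exact 95% binomial intervals. Wound macrophage-like cells are at 48.5% and 12.1%, against 23.9% and 21.2% in neutrophil-like cells, and NK-like cells are not drawn.

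The members also followed the markers without any threshold. Across cells at 7 days, ordered by the share of neutrophil markers, Cxcl2 went from 1848 CPM under 1% to 5390 CPM between 2% and 4% and 12999 CPM from 16% upwards. Cxcr2 went over the same bins from 365 to 1170 and 3954 CPM, and Cxcl3 from 1402 to 2328 and 4010 CPM. Cxcl2, Cxcl3 and Cxcr2 were thus higher in every step of neutrophil markers, unlike Cxcl1, which was between 2.73 and 20.2 CPM in no order, and Cxcr2 and Cxcl2 more steeply than Cxcl3. In control Cxcr2 had the same order, from 23.2 CPM in the lowest bin to 2787 CPM in the highest, whereas Cxcl2 went from 42.2 CPM to 589 CPM between 8% and 16% and was 191 CPM in the highest bin.

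Cells with under 2% neutrophil markers were ordered by wound macrophage markers instead. Cxcl3 then went from 351 CPM in the 1355 cells under 0.5% to 1739 CPM between 1% and 2% and 4941 CPM in the 320 cells from 4% upwards. Cxcl2 went from 1552 to 2717 and 4401 CPM. Cxcr2 was 420, 487 and 464 CPM in these bins, and neutrophil markers took between 1.05% and 1.15% of UMIs in all 5 of them. Both ligands, but not the receptor, were thus higher along the macrophage markers at a flat level of neutrophil transcripts.

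**Figure D5:**
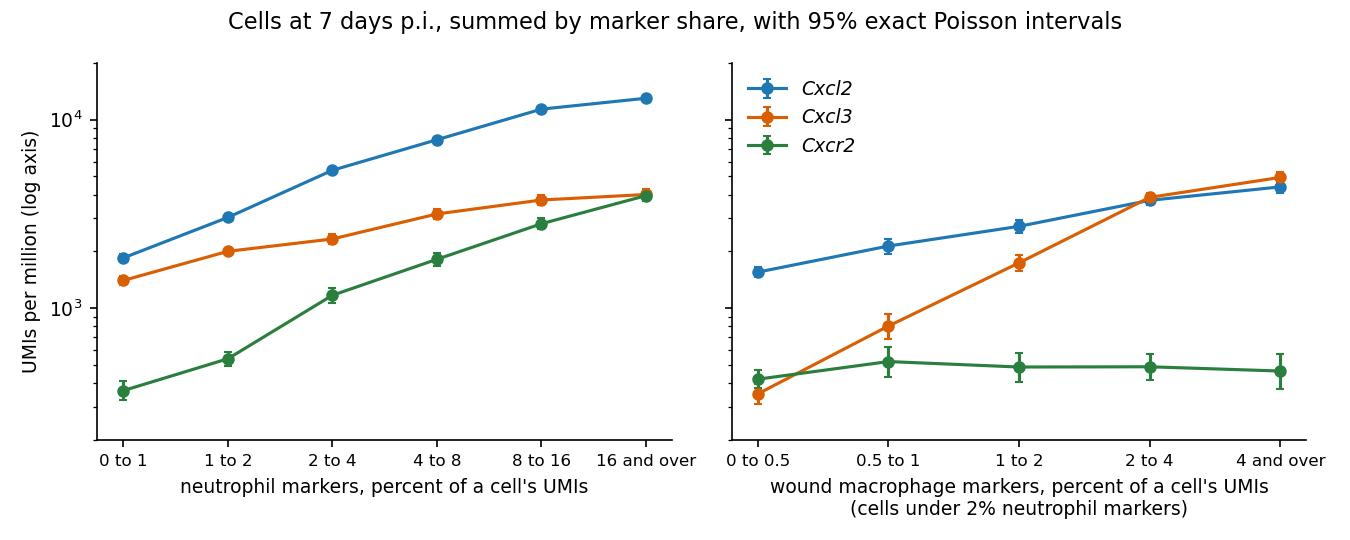
Level of Cxcl2, Cxcl3 and Cxcr2 at IRE 7 days, in CPM on a log axis, in cells binned by the percent of UMIs in neutrophil markers and, among cells with under 2% of those, by the percent in wound macrophage markers; bars are exact 95% Poisson intervals. All 3 members climb with neutrophil markers, and Cxcl3 climbs from 351 to 4941 CPM with macrophage markers while Cxcr2 stays between 420 and 521 CPM.

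Ligand and receptor were found in the same cells. Of the 1593 neutrophil-like cells at 7 days, 1463 had a UMI of Cxcl2 or Cxcl3, 1060 a UMI of Cxcr2 and 988 both, so that 93.2% of cells with receptor transcript also held ligand transcript. Cxcr2 was found in 67.5% of the cells with ligand and 55.4% of those without, and the cells with ligand were the deeper (medians of 418 and 461 UMIs without and with Cxcr2, against 361.5 and 402). In control, 161 of 274 neutrophil-like cells held Cxcr2 and 27 of these, or 16.8%, held Cxcl2 or Cxcl3, as did 44 of all 274. Cxcr2 was found in 61.4% of these control cells with ligand and 58.3% of those without. Among wound macrophage-like cells at 7 days 829 of 992 held ligand and 252 of these also Cxcr2, or 30.4%. The spread of transcripts through the library enters each of these counts, and its part was not tested.

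The level was held by many cells at 7 days. The 672 cells highest in Cxcl2, the 374 highest in Cxcl3 and the 557 highest in Cxcr2, out of 5624, held as many UMIs of the gene as all other cells together. In control the same held for 85, 3 and 104 of 10386 cells, so the low Cxcl3 of control came mostly from a few barcodes. Cxcl1 at 7 days lay in 22 cells, with 7 of its 37 UMIs in 1 of them.

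Cxcl1 had its own distribution. In control the mesenchymal-like cells, gated on genes of fibroblasts and stellate cells, had 38.6 CPM (22.9 to 61.0; 18 UMIs, or 23.1% of the gene's UMIs), above the 9.73 CPM of all control cells. That class was led by Fbn2, Nov, Dpep1, Cilp and Col24a1, none a marker of its gate, so which cells it held is not settled. Hepatocyte-like cells held 13 Cxcl1 UMIs in 6 of 18 control cells, or 16.7% of the gene's UMIs in 0.803% of the library, and cells of no class 30 of the 78. A gate for bile duct cells took 39 control cells led by Gkn2 and Tff1, genes of the stomach lining that go against its name, and these held 6 Cxcl1 UMIs at 216 CPM. At 7 days 23 of 37 UMIs lay in cells of no class (20.4 CPM), and only 4 cells were mesenchymal-like. Of the cells with Cxcl1, 6 of 55 in control and 18 of 22 at 7 days also held Cxcl2, beside 3.05% and 67.8% of all cells.

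Barcodes with under 200 detected genes, left out above, held more Cxcl2 and Cxcr2 UMIs than the cells did at 7 days, and fewer of Cxcl3 and Cxcl1. They had 18224 Cxcl2 UMIs (11981 CPM), 5312 Cxcl3 UMIs (3492 CPM) and 4579 Cxcr2 UMIs (3010 CPM). Cxcl2 and Cxcr2 were both at least 2-fold above the cells of that library, as were 2.61% of 6794 genes. By the same gate 58.3% of these barcodes, 3992 in number with a median of 227 UMIs, were neutrophil-like, and they held Cxcl2 at 15310 CPM and Cxcr2 at 3863 CPM. In control 6.19% were neutrophil-like and the levels over all such barcodes were 93.1 CPM for Cxcl2 and 236 CPM for Cxcr2. A gene minimum thus leaves out most neutrophil-like barcodes at 7 days, and the Cxcr2 level of neutrophil-like barcodes under it in control, 2658 CPM, was likewise above that of the cells.

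Other genes of the pathway were read in lists. Over all genes tested, 8.79% were at least 2-fold above control at 7 days and 21.8% at least 2-fold below, with a median ratio of 0.862, and at 1 day 12.2% and 5.86%, with a median of 1.03. Beside the members, 3 genes for ligands of Cxcr2 had at least 50 UMIs at 7 days and in control together. Mif, a cytokine that can bind Cxcr2, was at 4.44 times control. Ppbp, the platelet and macrophage ligand, had 24 UMIs in control and 241 at 7 days (26.3 times), and Cxcl5, an epithelial ligand, 21 and 74 (9.23 times). Both of these reached 50 UMIs only through the 7 days library and had to be higher there, so no count over the 3 is read. At 1 day Ppbp had 164 UMIs, 8.97 times control (5.82 to 14.4), and reached 50 only through that library. Cxcl5 had 1 UMI at 1 day, and Mif was at 0.662 times control. At 7 days Ppbp lay mostly in wound macrophage-like cells (209 CPM, against 28.6 CPM in neutrophil-like cells), and 64 of the Cxcl5 UMIs lay in cells of no class. Cxcr1, the close relative of Cxcr2, had 20 UMIs in neutrophil-like cells and 2 in wound macrophage-like cells. Cxcr4, which holds neutrophils in the bone marrow, was at 1.60 times control at 7 days and 0.182 times at 1 day, and its ligand Cxcl12 at 0.184 times at 7 days.

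A list of 9 genes held 8 further chemoattractant receptors and Tnfrsf1a, a receptor for tumour necrosis factor that stood at 1.17 times control at 7 days. Of the 9, 7 were at least 2-fold higher at 7 days, beside 8.79% of all genes, and none lower, with a median ratio of 4.05. They included Ccr1 (15.3 times), the leukotriene receptor Ltb4r1 (15.1 times), the complement receptor C5ar1 (8.998 times) and the formyl peptide receptors Fpr1 and Fpr2 (3.88 and 4.00 times). At 1 day 5 of the 9 were at least 2-fold lower, beside 5.86% of all genes, among them C5ar1 (0.236 times) and Ltb4r1 (0.262 times), beside Cxcr2 at 0.366 times. Of 15 genes that induce the ligands or act in NF-kB signalling, 7 were higher and 1 lower at 7 days, beside 8.79% and 21.8% of all genes (median 1.91), and none passed 2-fold at 1 day. Il1b, a cytokine that induces the ligands, was highest of these at 13.5 times control and lay at 3404 CPM in neutrophil-like cells and 977 CPM in wound macrophage-like cells at 7 days. Of 7 genes for decay of chemokine transcripts or their feedback, 3 were higher, beside 8.79% of all genes, Ier3 (13.3 times), Zfp36 (3.41 times) and Zc3h12a (3.07 times). Of 21 genes for signalling from Cxcr2, 4 were higher and 1 lower, beside 8.79% and 21.8% of all genes (median 1.22 beside 0.862). Of 7 other CXC chemokines 2 were higher and 2 lower, beside the same shares, with Cxcl10 at 4.16 times and Cxcl9 at 0.0901 times control.

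The genes with the pattern most like each member were found by Pearson's r of log2(CPM + 10) over 29 sums of cells, each a class in a library, among 8025 genes with at least 200 UMIs. These sums share libraries and depth, so r is a description. For Cxcl2 they were Slc7a11 (r = 0.954), a cystine transporter, Cxcl3 (0.951) and Niacr1 (0.947), a nicotinic acid receptor. For Cxcl3 they were Egln3 (0.971), an oxygen-sensing hydroxylase, then Cxcl2 and Slc7a11 (0.943). For Cxcr2 they were Slfn4 (0.955) and the neutrophil gate's own markers Csf3r (0.949) and Il1r2 (0.945). The ligands were thus more like each other than like the receptor, whose r was 0.861 with Cxcl2 and 0.792 with Cxcl3, and Cxcl1 had too few UMIs to be compared. These lists depend on the scale: for Cxcl2 1 of the 3 genes was again among the first 3 with a pseudocount of 1, 2 with 50 and 0 by Spearman's rho, for Cxcl3 it was 2, 3 and 1, and for Cxcr2 3, 1 and 2.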

How the data were processed

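Drop-seq libraries of control, IRE 1 day and IRE 7 days livers were used as the authors deposited them, as 3 tables of raw UMI counts per gene and barcode (10032574, 8563287 and 4580021 UMIs). Per the file headers, counts came from Drop-seq tools with a UMI edit distance of 1, a read quality of at least 10 and sense-strand coding and UTR reads. The submitters' processing notes name STAR 2.5.2a and a human build, although the gene symbols are mouse, so no coordinates were taken from the files. Collapsed counts depend on depth per barcode, and a low barcode can hold free RNA.

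The members and lists were chosen with earlier results of these data known. Cells were barcodes with at least 200 genes. Classes came from the percent of UMIs in marker genes, at thresholds set after seeing the marker shares (for example neutrophil 4%, wound macrophage 1.5%, with at least 3 markers detected). A cell that passed several gates took the class it exceeded most, and cells passing more than 1 gate numbered 104, 155 and 519. No doublet caller was run. Levels are UMIs per 1000000 (CPM), with exact Poisson, binomial or ratio intervals at 95%, and a count of 0 allows 3 counts. Since a condition is a single library, nothing was tested. Genes named are the 4 members, the genes of the fixed lists and the 3 genes most like each member. Also named are markers and leading genes of the classes, and Camp, Ltf and Ngp, picked after the data were seen. Calls of at least 2-fold used genes with at least 50 UMIs. Fold calls, ratio intervals and the search for like genes were tested on simulated counts in which each UMI was independent. The simulation held no gates, no clumping of UMIs within cells and no spread of transcripts. It therefore does not bear on the class levels and shares. Alternatives were other gene minimums, thinning, gates, scalings and pseudocounts. Python 3.11.15, numpy 2.4.6, scipy 1.17.1, pandas 2.3.3 and matplotlib 3.10.9 were used.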

Additional observations from a re-analysis of the deposited data

Results flagged for a closer look

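In the barcodes with under 200 detected genes, which the comparisons left out, Cxcl2, Cxcl3 and Cxcr2 were above the same barcodes of control at IRE 7 days. Cxcl2 stood at 11981 CPM against 93.1 CPM, Cxcl3 at 3492 CPM against 0.991 CPM and Cxcr2 at 3010 CPM against 236 CPM. Cxcl1 stood at 13.1 CPM against 2.97 CPM, from 20 and 6 UMIs. Of the 20, 7 lay in 1 barcode, and no direction is given for Cxcl1.

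Directions at 1 day and 7 days were opposite for Cxcr2 in neutrophil-like cells (0.411 and 1.58 times control), for Cxcl2 over all cells (0.849 and 90.0 times) and for Cxcr2 over all cells (0.366 and 15.8 times). For Cxcl2 at 1 day the interval was 0.732 to 0.984, and without mitochondrial genes and hepatocyte markers the ratio was 0.902 (0.777 to 1.04), which takes in 1. For Cxcr2 in neutrophil-like cells at 1 day, from 13 UMIs, the ratio was 0.804 (0.360 to 1.57) in cells with at least 300 genes and 0.578 (0.155 to 1.52) with at most 20% mitochondrial UMIs, and both intervals take in 1, so that an opposite direction is not shown there. Each rests on 1 library per time, both ratios share the control library, and the difference was not tested.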

How the results depend on the processing

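At least 2-fold higher Cxcl2, Cxcl3 and Cxcr2 at 7 days kept its direction under every alternative run. For the ratio of 7 days to control, the minimum of 100 genes gave 115 for Cxcl2 and 595 for Cxcl3, that of 300 genes 77.9 and 300.3, every deposited barcode 115 and 597, and the mean UMIs per cell 63.4 and 303, with 11.1 for Cxcr2. UMIs without mitochondrial genes and hepatocyte markers gave 74.5 for Cxcl2 and 13.04 for Cxcr2, and at most 20% mitochondrial UMIs 22.7 for Cxcr2. For 1 day to control, the mitochondrial limit gave 0.572 for Cxcl2 and 0.847 for Cxcl3, which turned its direction, and the cause was not tested. It kept 40.3% of cells at 1 day and 55.4% in control. Mean UMIs per cell gave 0.727 for Cxcl2, and Cxcr2 was 0.303, 0.437 and 0.303 at minimums of 100 and 300 genes and over every barcode. The neutrophil-like to wound macrophage-like ratio at 7 days, at 100 genes, 300 genes, every barcode and mean UMIs per cell, was 2.34, 1.87, 2.34 and 1.72 for Cxcl2, and 3.47 at 300 genes and 3.38 for the mean of Cxcr2. For Cxcl3 it was 0.748 at 100 genes, 0.747 over every barcode, 0.574 for the mean and 0.756 at the 8% threshold, which was chosen after seeing the data. Leaving out cells with markers of a second class, which kept 11.2% of cells at 7 days, gave 3.49 for Cxcl2 and 5.46 for Cxcr2. It kept 448 of 1593 neutrophil-like but only 25 of 992 wound macrophage-like cells. These ratios, and the shares under the same filter below, are therefore not read. The share of UMIs in neutrophil-like cells at 7 days, at 100 genes, 300 genes, every barcode, without second-class cells, without S100a8 and S100a9 in the gate and at the 8% threshold, was 67.1%, 39.8%, 67.0%, 94.7%, 50.7% and 37.0% for Cxcl2. It was 51.6%, 26.6%, 51.6%, 87.5%, 33.5% and 24.7% for Cxcl3, and 71.4%, 47.4%, 71.3%, 95.1%, 58.5% and 44.8% for Cxcr2. No paired analysis was possible because each condition is 1 library, which also allows no replicate to be left out. Depth limits Cxcl1, with 12 to 78 UMIs per library, and the 30 neutrophil-like cells at 1 day.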

Other observations

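Neutrophil-like cells were split by Camp, Ltf and Ngp, granule genes made early in neutrophil maturation, a set picked after the data were seen. In control 55 of 274 held a UMI of these genes. These held Cxcl2 at 23.6 CPM (1 UMI) against 516 CPM in the other 219 cells, a ratio of 0.0456 (0.00114 to 0.262), and Cxcr2 at 1084 CPM against 2023 CPM (0.536, 0.384 to 0.733). At 7 days 212 of 1593 cells held them, and there the ratio was 0.834 (0.783 to 0.888) for Cxcl2, 0.763 for Cxcl3 and 0.968 (0.861 to 1.09) for Cxcr2. Both ligand and receptor transcript were thus lower in the granule-gene cells of control, and at 7 days such cells held Cxcl2 at 9092 CPM. The spread of neutrophil transcripts through the 7 days library also reaches these cells, and its part was not tested.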
